A study of Mus musculus with 4 samples.

Results

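Circular RNAs are closed transcripts, and sequencing detects them by reads that cross a back-splice junction, the point where a downstream end is joined to an upstream one. Most junctions of the mouse brain table described here join the boundaries of annotated exons. A minority lie inside an annotated gene with neither end on such a boundary, and these are described here. A junction was taken when it lay wholly inside a gene of GENCODE M21 on GRCm38, its start fell on no annotated exon start and its end on no annotated exon end. Junctions inside snoRNA, scaRNA or snRNA genes were left out. The rule found 668 junctions of 23980 in the table (2.79%), in 419 host genes. They were split into 333 intronic junctions, which touch no exon of the host, 109 exon-internal junctions, which lie wholly inside 1 exon, and 226 mixed junctions, which cover both exon and intron. Of the mixed junctions, 174 contained at least 1 whole exon.

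The samples were brain tissue of mice, as 4 RNA libraries with 1 library in each group. The frontal core and the occipital core libraries came from the infarct core near the frontal and the occipital lobe, and the penumbra library from the threatened cortex around the core, each taken at 3 h from mice with permanent occlusion of the middle cerebral artery (MCAO) by an intraluminal filament. RNA of 6 mice was pooled for each of these 3 libraries. The sham library is the control, and its tissue, per the labels, was cortex matching core and penumbra. The sources used here do not give the number of sham mice, their sampling time or the strain, age and sex of any mouse. RNA was extracted with Trizol after perfusion, ribosomal RNA was depleted and directional libraries were made. With pooled RNA and 1 library in each group there is no replicate error, and every comparison is between 2 libraries. The intervals in square brackets are 95% exact intervals and cover counting error only, not variation between animals or libraries. They treat each read as a separate molecule. Reads copied by PCR, with no molecular identifiers, are not, so the intervals may be too narrow even for counting error.

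Introns are normally removed as lariats, in which the first base of the intron is tied to a branch point a short way before its last base, and then broken down. A lariat that escapes debranching can remain as an intronic circle, which begins at the 5′ splice site and ends near the branch point. Backsplicing between exons, by contrast, uses the spliceosome's usual signals: the bases AG stand directly before the first joined base and GT directly after the last one. Very long introns of neuronal genes are also known to hold unannotated exons and recursive splice sites, and these too carry such signals.

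The bases at the ends of a few exon-internal and whole-intron junctions are printed to show the signals and repeats described for them. The first set gives 24 bases around each end of an exon-internal junction, 12 on each side, read on the strand that carries the signals. In the line for the first bases AG stands just before the middle, and in the line for the last bases GT stands just after it. The capitals mark the bases that are the same at both ends. Snhg11 is the exon-internal junction with the most counts, Tmsb4x and Sec62 show longer repeats, and Kif1a shows none and has its signals on the strand opposite to its gene. Their positions are chr2:158382504-158383163, chrX:167207275-167207405, chr3:30818892-30819000 and chr1:93016190-93016775.
Snhg11 first bases: ttttctctgtAGGTtgccgtggac
Snhg11 last bases: atggttcctcAGGTactttgtaat
Tmsb4x first bases: agatgcaaagagGTTGGatcaagt
Tmsb4x last bases: aagaacttgcatGTTGGtgaagga
Sec62 first bases: ctggagCAGCAGacagatggggat
Sec62 last bases: taagtaCAGCAGgttgggttttct
Kif1a first bases: gtgggtttctagattcatctcact
Kif1a last bases: tctccccactttgtatctcaacct

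The second set shows host exons joined across an intron that a junction spans from its first to its last base. Each line is the last 12 bases of the exon before the intron and the first 12 of the exon after it, on the strand of the gene. The capitals mark AG at the end of the one exon and GT at the start of the next. The introns are those of Zfp68 (chr5:138616566-138617054), Hspa5 (chr2:34774773-34775065) and Btf3 (chr13:98313294-98313638), which are among the whole-intron junctions with the most counts.
Zfp68: ttcaaccatcAGGTctaggtggct
Hspa5: atcaggatacAGGTgatctggtac
Btf3: ggtattgaagAGGTgaacatgttt

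Total circRNA counts were 121393 in the frontal core, 83090 in the occipital core, 96349 in penumbra and 106558 in sham. As a check of the tissue label, 8 of 11 neuronal marker genes had circRNAs with exon boundaries, at 15709 to 17572 CPM, which are counts scaled to a library of 1000000 circRNA counts. All 6 microglial and all 4 blood markers had none, while 1 of 5 endothelial and 2 of 7 astrocyte markers had some. Of the 7 oligodendrocyte markers 6 had none and Qk had 8, at 255 CPM in the frontal core, 361 in the occipital core, 343 in penumbra and 150 in sham. The part of cell composition in the results below was not tested. In bulk tissue fewer cells of a type and less RNA per cell cannot be told apart.

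The off-boundary junctions were rare and thinly covered. Together they held 1.21% [1.15–1.27] of circRNA counts in the frontal core, 1.31% [1.24–1.39] in the occipital core, 1.24% [1.17–1.31] in penumbra and 1.29% [1.22–1.36] in sham. Among pairs of libraries, the interval of the ratio excluded 1 only for the frontal core over the occipital core. That ratio was 0.920 [0.850–0.996] at the library totals. The median of the off-boundary junctions was 3 counts over the 4 libraries, against 5 for the 19904 junctions with both ends on exon boundaries of 1 gene. At the lowest total in the table, 2 counts, stood 40.1% of them and 19.0% of the exon-boundary junctions. Only 69 (10.3%) reached 10 counts, against 30.3% of the exon-boundary junctions, and 13.5% were seen in all 4 libraries, against 32.5%. The counts were concentrated in a few members, since 1 junction of Snhg11 alone had 541 of 5123. Of the 668, 499 lay in protein-coding genes, 158 in genes typed lincRNA, antisense or processed transcript, 9 in pseudogenes and 2 in ribosomal RNA genes. The host of 457 also had exon-boundary circRNAs. For 38 junctions more than 1 gene contained the junction, and for 23 of these the genes lay on both strands. The table gives no strand, so those hosts cannot be told apart.

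Scaled to library totals, intronic junctions took a lower share in the frontal core than in sham, and mixed junctions a higher one in the occipital core than in sham. Intronic junctions held 0.660% [0.615–0.707] of counts in the frontal core, 0.700% [0.645–0.760] in the occipital core, 0.695% [0.644–0.750] in penumbra and 0.762% [0.711–0.816] in sham. The ratio to sham was 0.866 [0.784–0.956] for the frontal core, 0.919 [0.825–1.02] for the occipital core and 0.913 [0.823–1.01] for penumbra, so that the interval excluded 1 for the frontal core. With edgeR's TMM scaling factors, an alternative chosen after values were seen, the ratio was 0.851 for the frontal core and 0.850 [0.763–0.947] for the occipital core, whose interval then excluded 1 too. Exon-internal junctions held 0.239%, 0.265% and 0.243% in the frontal core, the occipital core and penumbra and 0.255% in sham, and all 3 intervals of the ratio to sham included 1. Mixed junctions held 0.308% in the frontal core, 0.347% in the occipital core, 0.304% in penumbra and 0.269% in sham. Their ratio to sham was 1.14 [0.978–1.34] for the frontal core, 1.29 [1.09–1.52] for the occipital core and 1.13 [0.956–1.33] for penumbra. Without the junctions of Snhg14, a leave-out chosen after values were seen, the mixed ratio for the occipital core was 1.15 [0.958–1.38] and its interval included 1. The same leave-out gave intronic ratios of 0.838 [0.758–0.927] for the frontal core, 0.892 [0.798–0.995] for the occipital core and 0.889 [0.799–0.988] for penumbra. The 3 ratios share the 1 sham library. The Snhg14 junctions summed higher in each MCAO library than in sham. Leaving them out therefore lowers the mixed and the intronic ratios by construction.

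**Figure D1:**
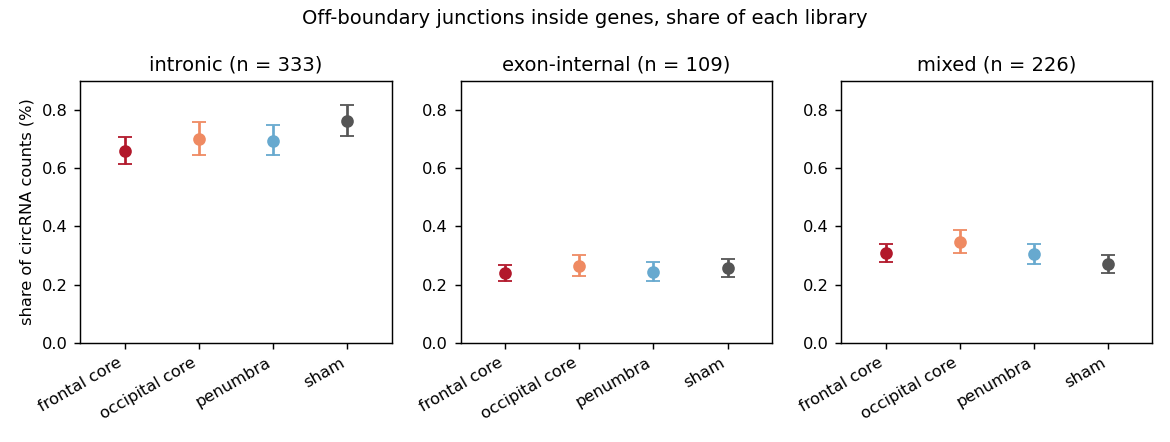
Share of each library's circRNA counts (%, vertical axis) held by the intronic, exon-internal and mixed junctions in the frontal core, the occipital core, penumbra and sham. Points are shares and bars 95% exact intervals for counting error; the intronic share was 0.660% in the frontal core and 0.762% in sham, and the mixed share 0.347% in the occipital core and 0.269% in sham.

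Intronic junctions lay mostly inside long introns. Of the 333, 225 that did not begin at an intron's first base lay more than 1000 bases from the like exon boundaries. That is, the start was that far from any exon start and the end that far from any exon end. The distance of a start from exon ends, or of an end from exon starts, was not part of this count. An intron of a single transcript could be given for 296 junctions. For 231 of these (78.0%) it was longer than 10000 bases, against 11.5% of 250904 introns of protein-coding genes. The median length of the holding introns was 160429 bases, against 1473 for all introns of protein-coding genes. Several junctions can share an intron, which then counts once for each of them, so these lengths are not independent. The holding introns include those of noncoding hosts. A longer intron also offers more positions for a junction, and the comparison was not weighted by length. Whether junctions favour long introns beyond this was not tested. The junctions themselves spanned a median of 1778 bases. Of the 333, 138 shared an end with another junction of the table, and 36 shared one with a junction that has its other end on an exon boundary.

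The intronic junction with the most counts lay in Pcdh15 (chr10:73282748-73283608), the gene of protocadherin 15, an adhesion protein of sensory hair cells. It had 72 counts in the frontal core, 29 in the occipital core, 48 in penumbra and 48 in sham. The frontal core was highest and the occipital core lowest, also as CPM (593 and 349). The region also lies inside Gm15398, a lincRNA gene on the opposite strand, and overlaps 1 of its exons, so the strand of origin is not known. Gm2164, an antisense RNA gene, held a junction of 30083 bases (chr4:124556045-124586127) with 45 counts in the frontal core, 30 in the occipital core, 35 in penumbra and 37 in sham. A second junction of the same gene, chr4:124556045-124557384, starts at the same base and had 15, 23 and 20 counts in the frontal core, the occipital core and penumbra and 15 in sham. As CPM the longer junction was level, from 347 to 371 over the libraries, while the shorter one was highest in the occipital core (277) and lowest in the frontal core (124). Of the 7 junctions in Gm2164, 6 started at that base, and the gene had no exon-boundary circRNA.

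The remaining intronic junctions among the 10 with the most counts that are not described elsewhere here were those of Hs3st4, Ctnna2, Efna5 and Pgbd5. Hs3st4 (chr7:124029586-124029805), a heparan sulfate sulfotransferase, had 36, 16 and 18 counts in the frontal core, the occipital core and penumbra and 29 in sham. Ctnna2 (chr6:77567162-77574832), the neuronal alpha-catenin, had 18, 22 and 26 counts in the frontal core, the occipital core and penumbra and 20 in sham. Efna5 (chr17:62686016-62689139), an ephrin that binds Eph receptors, had 12, 9 and 15 counts in the frontal core, the occipital core and penumbra and 20 in sham. For Efna5 sham was highest in counts, and for Ctnna2 the penumbra was. Pgbd5 (chr8:124396253-124396584), a domesticated transposase gene, had 10, 7 and 11 counts in the frontal core, the occipital core and penumbra and 18 in sham. None of these 4 passed the adjusted test against sham in any of the MCAO libraries.

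**Figure D2:**
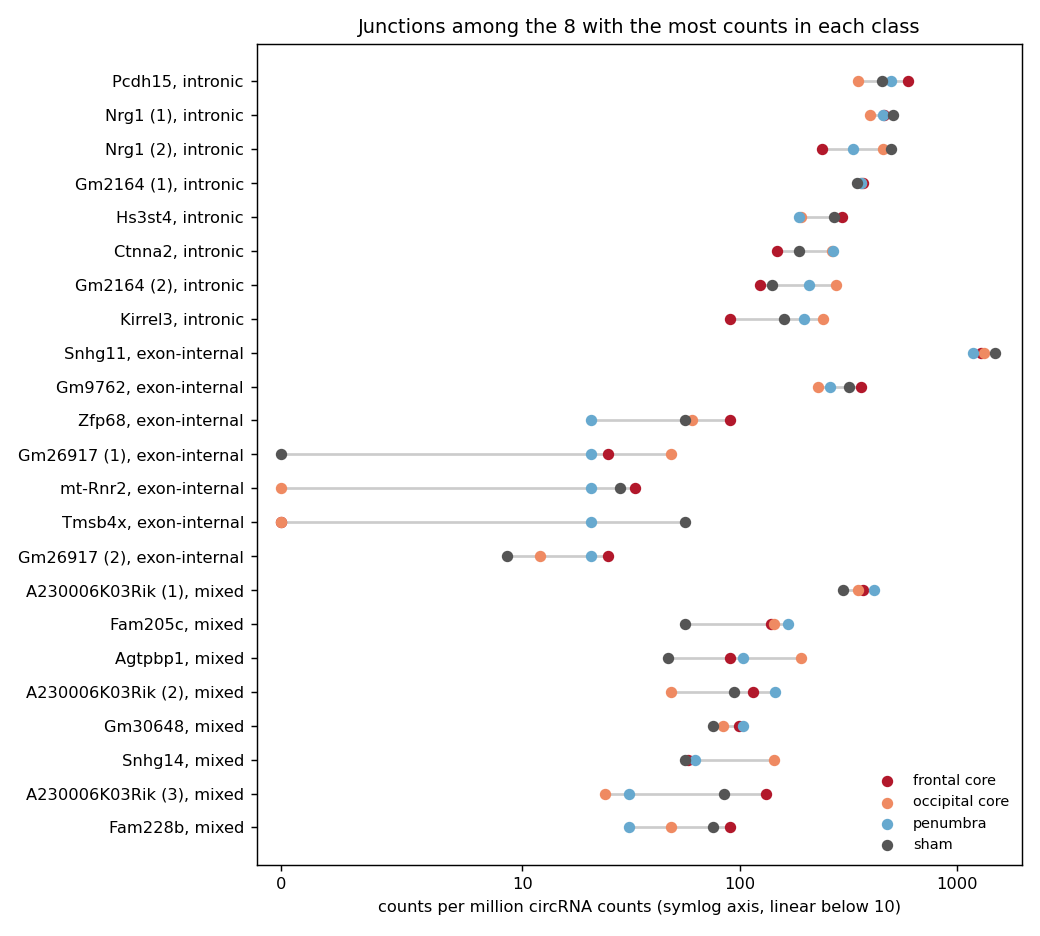
CPM (horizontal axis, linear below 10 and logarithmic above) of junctions among the 8 with the most counts in each class, 1 row each, with a point for the frontal core, the occipital core, penumbra and sham and a grey line over their range. Numbers in brackets tell junctions of 1 gene apart, and for Tmsb4x the frontal core point lies under the occipital core point at 0; the Snhg11 junction stands above all others at 1183 to 1492 CPM.

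Nrg1, the gene of neuregulin 1, a ligand of ErbB receptors, held 15 intronic junctions, all in 1 intron of 915330 bases. They summed to 130 counts in the frontal core, 91 in the occipital core, 111 in penumbra and 135 in sham. The ratio to sham was 0.845 [0.659–1.08] for the frontal core, 0.864 [0.655–1.14] for the occipital core and 0.909 [0.701–1.18] for penumbra, so the sums of these libraries did not differ beyond counting error. The 15 junctions used 10 starts and 8 ends, and 14 shared an end with another junction. The most abundant one, chr8:32441010-32503325, had 56 counts in the frontal core, 33 in the occipital core, 44 in penumbra and 54 in sham. The next, chr8:32501281-32508736, had 29 counts in the frontal core, 38 in the occipital core, 32 in penumbra and 53 in sham. One more, chr8:32441010-32508736, joins the start of the first to the end of the second and had 12, 4 and 6 counts in the frontal core, the occipital core and penumbra and 8 in sham. The same few positions were therefore joined in several combinations. Nrg1 also had 4 exon-boundary circRNAs with 40 counts in all, against 467 for the intronic junctions.

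**Figure D3:**
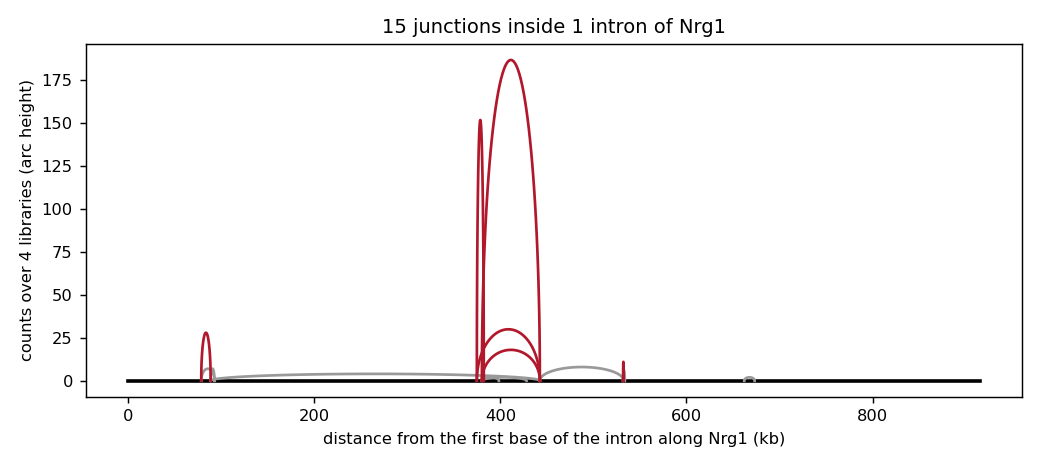
The 15 junctions inside 1 intron of Nrg1, each drawn as an arc between its ends over the distance from the first base of the intron (horizontal axis, kb), with the height of the arc giving its counts over the 4 libraries (vertical axis). Red arcs are junctions with 10 or more counts and grey arcs the others; the tallest arc has 187 counts, and several arcs meet at the same positions.

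Kirrel3, a synaptic adhesion protein of the immunoglobulin superfamily, held 8 intronic junctions, of which 6 started at chr9:34536916 and ended at 6 different bases. Unlike those of Nrg1, the 8 junctions had 8 distinct ends, so they shared starts only. They summed to 28 counts in the frontal core, 30 in the occipital core, 34 in penumbra and 35 in sham. Dab1, an adaptor of the reelin pathway, also had 8 junctions, with 7, 7 and 12 counts in the frontal core, the occipital core and penumbra and 9 in sham. For both genes every interval of the ratio to sham included 1. Intronic bases could not be read, because no genome sequence was used here, so the signals at most of these ends are not known.

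A small group began exactly where a lariat begins. Of the 333 intronic junctions, 45 (13.5%) started at the first base of a host intron, and 37 of these ran on to its last base. The other 8 ended inside the intron, from 1 to 2493 bases before its last base. The one in Dnmt3a, a DNA methyltransferase that sets new methylation marks (chr12:3899700-3899835), ended 28 bases before the end of a 164-base intron. It had 7 counts in the frontal core, 11 in the occipital core, 4 in penumbra and 17 in sham. Sham was highest and penumbra lowest. Set against sham, the ratio was 0.361 [0.127–0.917] for the frontal core, 0.830 [0.351–1.88] for the occipital core and 0.260 [0.0637–0.798] for penumbra. By Fisher's exact test with Benjamini-Hochberg adjustment over all junctions tested, the adjusted p was 0.254 for the frontal core and 0.240 for penumbra, so neither difference passed. The junction of Celsr3, an atypical cadherin of axon guidance, ended 1 base before the end of its intron and had 3, 2 and 5 counts in the frontal core, the occipital core and penumbra and 6 in sham. Hbs1l, a ribosome rescue factor, had 8, 2 and 2 counts in the frontal core, the occipital core and penumbra and 1 in sham, ending 5 bases before the end. The 8 together had 23, 19 and 18 counts in the frontal core, the occipital core and penumbra and 32 in sham, and every interval of the ratio to sham included 1. Mouse genes matching the hosts of the first described intronic circles (Ankrd52, Sirt7, Mcm5 and Ins2) held none of the 668.

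Some junctions spanned a whole intron. There were 52 in all: 37 intronic, 11 mixed and 4 exon-internal ones, where another transcript has the intron inside an exon. At all 52 the bases AG stood before the intron and GT after it, on the strand of the host for 51. Among 250875 introns of protein-coding genes, 24786 (9.88%) have an exon ending in AG before them and one beginning with GT after them. The same signals stood at the ends of all 219 junctions whose flanking bases could be read, so the whole introns do not differ in this from the other junctions read. How far the calling program required these signals was not tested. Whole-intron junctions spanned 175 to 1899 bases, and 1 of the 52 shared an end with another junction.

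The whole-intron junctions summed to 71 counts in the frontal core, 41 in the occipital core, 44 in penumbra and 83 in sham. Relative to sham this was 0.751 [0.539–1.04] for the frontal core, 0.633 [0.425–0.932] for the occipital core and 0.586 [0.397–0.855] for penumbra. The intervals for the occipital core and penumbra excluded 1. This rested in part on 1 junction. Without it, a leave-out chosen after values were seen, the ratios were 0.864 [0.602–1.24] for the frontal core, 0.691 [0.444–1.06] for the occipital core and 0.664 [0.434–1.00] for penumbra, and at the library totals all 3 intervals reached 1. With other scaling 2 of these did not: the ratio was 0.639 [0.411–0.978] for the occipital core with TMM factors and 0.656 [0.429–0.991] for penumbra with DESeq2 size factors. Zfp68, a zinc finger gene, had 11, 5 and 2 counts in the frontal core, the occipital core and penumbra and 6 in sham. Hspa5, the chaperone BiP of the endoplasmic reticulum, had 4, 0 and 2 counts in the frontal core, the occipital core and penumbra and 7 in sham.

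Of 34 immediate-early and stress genes, 2 held a junction, and both were whole introns. They are named although each had under 10 counts, after their values were seen. Klf6, a zinc finger transcription factor (chr13:5866763-5867231), had 5 counts in the frontal core, 1 in the occipital core, 0 in penumbra and 0 in sham. Dusp6, a phosphatase that switches off ERK (chr10:99264092-99264543), had 2 counts in the frontal core, 2 in the occipital core, 0 in penumbra and 0 in sham. Both genes had counts in the core libraries and none in the other 2. The lowest total of any junction in the table is 2 counts, and these counts are a description with no test. The share of all off-boundary junctions with counts in the core libraries alone is not given here, so the pattern has no background beside it.

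The exon-internal junctions were short, and the 3′ UTR was the region that held the highest number. Of the 109, 50 lay in a 3′ UTR, 29 in noncoding transcripts, 22 in coding sequence, 6 across an end of the coding sequence and 2 in a 5′ UTR. Their median span was 155 bases, and none shared an end with a junction that has 1 end on an exon boundary. At the 2-count minimum stood 54 of them, and 4 reached 10 counts. AG and GT flanked all 109, on the strand of the host for 81 junctions with 947 counts and on the opposite strand for 28 junctions with 69 counts. With the positions moved by 20 bases, 0 of 107 read had these signals. The calling program is not named, so whether it required these signals, which would fix this contrast, is not known. Exon-boundary junctions could be read only where another transcript covers their flanks, and 455 of 471 (96.6%) of that selected subset had them.

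The 2 ends of exon-internal junctions carried the same short run of bases. The repeat, counted as the bases by which a junction can be slid without changing the joined sequence, had a median of 4 bases over the 108 junctions read. It was 4 bases or longer in 75 of them (69.4%), up to 6 bases. At exactly 6 bases stood 30 junctions (27.8%), and none had more. The longest repeat was also 6 bases in junctions with 1 or both ends on exon boundaries. Whether a limit in the earlier processing set this maximum was not tested. With positions moved by 20 bases the median was 0, and 4.76% of 105 reached 4 bases. The moved positions were not picked by the calling program. Whether its choice of positions shaped this contrast is not known. Junctions with both ends on exon boundaries had a median of 2, with 17.2% of 431 at 4 or more, and those with 1 end on a boundary a median of 2, with 12.8% of 133. At 2 counts, 77.8% of the exon-internal junctions had 4 or more repeated bases, against 44.4% of the 18 with 5 or more counts. A repeat of this kind means that the deposited position is 1 of several that give the same sequence. After sliding, 2 of the 668 could be placed on an exon boundary.

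**Figure D4:**
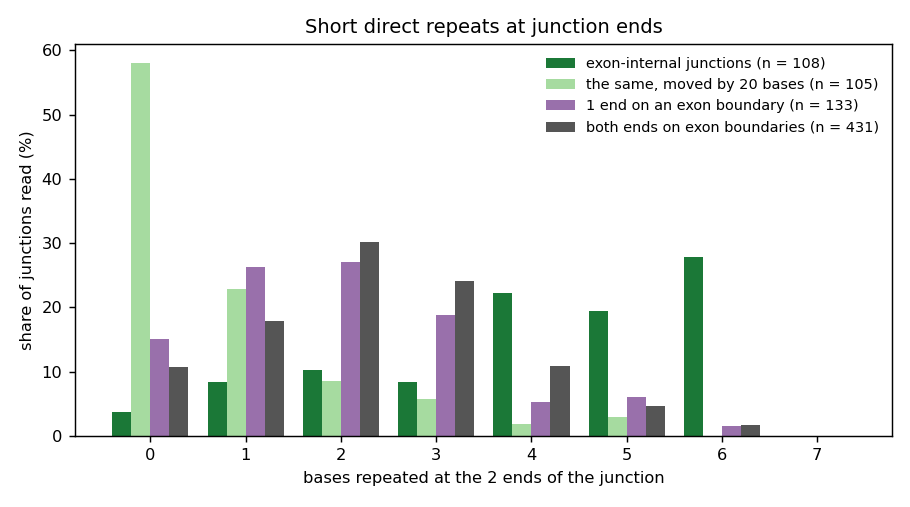
Share of the junctions read (%, vertical axis) by the number of bases repeated at both ends (horizontal axis), for exon-internal junctions, the same moved by 20 bases, junctions with 1 end on an exon boundary and junctions with both. Of the exon-internal junctions 69.4% stand at 4 or more bases, against 4.76% when moved and 17.2% for both ends on exon boundaries.

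One junction of Snhg11, a small nucleolar RNA host gene, held 541 of the 1016 exon-internal counts. It had 157 counts in the frontal core, 111 in the occipital core, 114 in penumbra and 159 in sham. The ratio to sham was 0.867 [0.691–1.09] for the frontal core, 0.895 [0.696–1.15] for the occipital core and 0.793 [0.618–1.01] for penumbra, so no MCAO library differed from sham beyond counting error. GENCODE types the gene as protein-coding and places the junction in a 3′ UTR. As the printed bases show, AG and GT are themselves the 4 repeated bases. Another 2 junctions of the gene shared 1 of its ends or lay beside it, with 3 and 2 counts over the 4 libraries, and the gene had no exon-boundary circRNA.

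The junction next in counts lay in a pseudogene that is an exact copy of spliced exons of another gene. Gm9762 (chr3:78966402-78966775) had 44 counts in the frontal core, 19 in the occipital core, 25 in penumbra and 34 in sham. All intervals of its ratio to sham included 1. Its 374 bases were 100% identical to 5 exons of Ube2d2a, a ubiquitin-conjugating enzyme on chromosome 18, and both ends fell on boundaries of those exons. No junction of Ube2d2a was in the table as used here, and reads of the copy and of the gene cannot be told apart. In 2 further pseudogenes the ends also fell on exon boundaries of the gene copied: Gm4939, with 97.3% identity to 3 exons of Vps4b, and Gm12263, with 98.1% identity to 2 exons of Arih2. In all, 11 of the 109 exon-internal junctions had a copy in another gene at 90% identity or more.

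The other exon-internal junctions were sparse. Tmsb4x, the actin-binding thymosin beta 4, had 0, 0 and 2 counts in the frontal core, the occipital core and penumbra and 6 in sham. In the mitochondrial ribosomal RNA mt-Rnr2 there were 4, 0 and 2 counts in the frontal core, the occipital core and penumbra and 3 in sham. Both junctions stood under 10 counts, so neither was tested singly. The mitochondrial genome held 4 junctions in all, with 7, 1 and 4 counts in the frontal core, the occipital core and penumbra and 4 in sham. Of 7 myelin genes 2 held a junction, with 4, 3 and 3 counts in the frontal core, the occipital core and penumbra and 5 in sham. Of 32 abundant neuronal and synaptic genes 12 held 16 junctions, with 28, 15 and 9 counts in the frontal core, the occipital core and penumbra and 21 in sham.

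Gm26917, a lincRNA gene next to a ribosomal RNA gene on chromosome 17, held 10 exon-internal junctions, of which 6 ended at chr17:39845357. They had 13 counts in the frontal core, 15 in the occipital core, 15 in penumbra and 3 in sham, so that all 3 MCAO libraries were above sham. Their ratios to sham were 3.80 [1.05–20.8] for the frontal core, 6.41 [1.81–34.6] for the occipital core and 5.53 [1.56–29.8] for penumbra. No junction of the gene had more than 9 counts. The neighbouring genes CT010467.1, Gm42418 and AY036118 overlap each other and share sequence, and with their junctions included the ratios were 2.46 [0.837–8.72], 4.62 [1.65–15.9] and 3.98 [1.42–13.7] in the same order. The gene was taken because it is among the hosts with the most junctions. The sources used here do not give the share of ribosomal RNA left in each library, and its part in this difference was not tested.

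Snhg14 held more of the junctions than any other gene, and its counts were higher in each MCAO library than in sham. This long paternally expressed RNA carries arrays of near-identical snoRNA genes and runs antisense to Ube3a. It held 91 of the 668 junctions, 52 mixed and 39 intronic, and 86 overlapped small RNA genes. They summed to 88 counts in the frontal core, 90 in the occipital core, 76 in penumbra and 51 in sham. Relative to sham the sum was 1.51 [1.06–2.18] for the frontal core, 2.26 [1.59–3.26] for the occipital core and 1.65 [1.14–2.40] for penumbra. Reads from repeated copies may be placed at any of them, so single positions in the locus are uncertain.

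The Snhg14 junctions were long and reused positions. Of the 91, 84 spanned more than 10000 bases, 87 shared an end with another junction, and 29 started at the same base. Most were thin, with 71 at 2 or 3 counts. The 3 with 10 counts or more were chr7:59368377-59420948 with 7, 12 and 6 counts in the frontal core, the occipital core and penumbra and 6 in sham, chr7:59330560-59332914 with 10, 3 and 2 against 0 in sham, and chr7:59353424-59412562 with 1, 5 and 4 against 1 in sham. Without these 3 the ratio to sham was 1.40 [0.944–2.08] for the frontal core, 2.04 [1.38–3.05] for the occipital core and 1.61 [1.08–2.42] for penumbra. The 51 other junctions of the locus, with 1 or both ends on exon boundaries, had 84, 85 and 95 counts in the frontal core, the occipital core and penumbra and 86 in sham. Their ratios to sham were 0.857 [0.627–1.17], 1.27 [0.928–1.73] and 1.22 [0.903–1.66] in the same order, all with 1 inside the interval. Whether the off-boundary and the other junctions of the locus differ in their ratio was not tested.

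**Figure D5:**
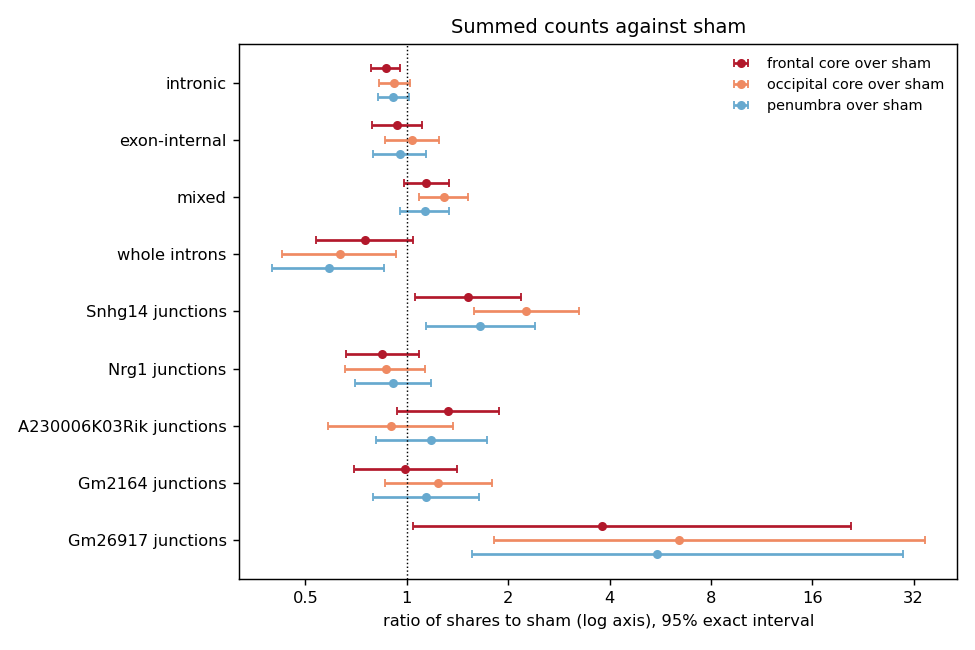
Ratio of the summed share in the frontal core, the occipital core and penumbra to that in sham (horizontal axis, logarithmic), with 95% exact intervals for counting error, for the 3 classes, the whole introns and the junctions of 5 host genes. The dotted line marks 1; the intervals of Snhg14 and Gm26917 lie above it in all 3 MCAO libraries, and those of Nrg1, A230006K03Rik and Gm2164 cross it.

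The mixed junction with the most counts lay in the lincRNA A230006K03Rik. The gene held 12 junctions, 10 of them mixed, which used 3 starts and 8 ends and all shared an end with another junction. They summed to 86 counts in the frontal core, 40 in the occipital core, 61 in penumbra and 57 in sham, and all intervals of the ratio to sham included 1. The frontal core over the occipital core was 1.47 [1.00–2.20], and the ratios of penumbra to each core had 1 inside the interval. The most abundant, chr7:61194987-61202989, had 45, 29 and 40 counts in the frontal core, the occipital core and penumbra and 32 in sham. A longer one, chr7:61177428-61221932, had 16, 2 and 3 counts in the frontal core, the occipital core and penumbra and 9 in sham. Its start and its end were each joined to other positions too, and its high library was the frontal core.

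The mixed junctions of Fam205c and Agtpbp1 had more counts in each MCAO library than in sham, and neither passed the adjusted test against sham. Fam205c (chr4:42871557-42873355) had 17, 12 and 16 counts in the frontal core, the occipital core and penumbra and 6 in sham. Agtpbp1, a tubulin deglutamylase (chr13:59454535-59546383, with 46 annotated exons inside, alternative forms counted separately), had 11, 16 and 10 counts in the frontal core, the occipital core and penumbra and 5 in sham. For Agtpbp1 in the occipital core the ratio to sham was 4.10 [1.44–14.3], with adjusted p = 0.131 by Fisher's exact test. Gm30648, Elfn2, Upp2 and Fam228b had 37, 26, 22 and 26 counts over the 4 libraries. Of these, Fam228b had 11, 4 and 3 counts in the frontal core, the occipital core and penumbra and 8 in sham, and Elfn2 had 5, 10 and 5 and 6 in sham.

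Each junction was also compared singly between libraries, where 2 libraries together had 10 counts or more. This held for 54 of the 668 in at least 1 of 6 pairs. Against sham, 3 of 45 junctions tested in the frontal core were at least 2-fold higher and 5 at least 2-fold lower, where 15.1% and 11.4% of all junctions tested in that comparison were. In the occipital core 6 of 37 were higher and 4 lower, where the shares of all junctions were 11.3% and 13.1%. In penumbra 5 of 40 were higher and 8 lower, where the shares of all junctions were 11.1% and 12.7%. As shares of the members tested, these were 6.67% and 11.1% in the frontal core, 16.2% and 10.8% in the occipital core, and 12.5% and 20% in penumbra. Few members were tested, and whether their shares differ from those of all junctions was not tested. The median log2 ratio of the members was 0.09 for the frontal core, -0.13 for the occipital core and -0.04 for penumbra, against 0.03, -0.06 and 0.01 over all junctions tested.

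Between the MCAO libraries, penumbra over the frontal core had 2 of 42 junctions at least 2-fold higher and 6 lower, where the shares of all junctions were 11.5% and 12.9%. Penumbra over the occipital core had 1 of 33 higher and 4 lower, where the shares were 11.5% and 8.91%. The frontal core over the occipital core had 6 of 42 higher and 8 lower, where the shares were 14.8% and 10.8%. The junctions chosen by the 2-fold rule with 30 counts or more were few. Kirrel3 (chr9:34536916-34538449) had 19 counts in penumbra and 11 in the frontal core, a ratio of 2.18 [0.984–5.06], and 11 in the frontal core against 20 in the occipital core, a ratio of 0.376 [0.163–0.824]. The shorter Gm2164 junction had 15 counts in the frontal core and 23 in the occipital core, a ratio of 0.446 [0.217–0.893]. The adjusted p by Fisher's exact test was 0.364, 0.214 and 0.293 in that order.

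Against sham the rule chose 1 junction at 30 counts, the second of Nrg1 (chr8:32501281-32508736), with 29 counts in the frontal core and 53 in sham. The ratio was 0.480 [0.294–0.769], and the adjusted p by Fisher's exact test was 0.0682, which did not pass; with only junctions of 30 counts or more tested, it passed. Over all 6 pairs Fisher's exact test called 0 of the members, with 5, 2 and 4 at an unadjusted p under 0.05 for the frontal core, the occipital core and penumbra over sham. For penumbra over the frontal core, penumbra over the occipital core and the frontal core over the occipital core that number was 5, 2 and 6. The share of all junctions at an unadjusted p under 0.05 is not given here, so these numbers have no background beside them. Of all junctions tested, the exact test with the 2-fold rule called 0.289% higher and 0.458% lower in the frontal core over sham, 0.292% and 0.175% in the occipital core over sham, and 0.0538% and 0% in penumbra over sham. The shares were 0.53% and 0.404% in penumbra over the frontal core, 0.0303% and 0.0303% in penumbra over the occipital core, and 0.185% and 0.159% in the frontal core over the occipital core. A Fisher test on the reads of 2 libraries compares those libraries, not the conditions.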

How the data were processed

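The deposited table holds whole-number junction read counts for each circRNA in 4 libraries, with no normalization by the authors. Per the submitters' processing notes, TopHat2 2.0.10, Bowtie and the build mm9 were used; the sources used here name neither the circRNA caller nor the annotation. The coordinates fit GRCm38, since 83.0% of the circRNAs had both ends on exon boundaries of 1 gene of GENCODE M21, and they are given as deposited. The deposited FPKM table was not used.

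Junctions were placed on GENCODE M21 and scaled to the total count of each library. Shares carry Clopper-Pearson intervals and ratios exact conditional intervals (SciPy 1.17.1). Fisher's exact test (two-sided, Benjamini-Hochberg over all junctions with 10 counts or more in the pair, adjusted p under 0.05 and 2-fold) was tested on simulated data. A count of 0 was set to 3 for a ratio. With 1 library in each group, edgeR 4.0.16 and DESeq2 1.42.0 gave scaling factors only. Exonic bases came from the GENCODE transcripts, and no genome sequence was used, so signals and repeats could be read for exonic flanks only. Copies were found with BLAST 2.17.0 (90% identity over 90% of the length). The genes named are the 10 members with the most counts in each class, the members past 2-fold with 30 counts in a pair, list members with 10 counts, and the hosts with the most members. Members and lists were chosen with earlier results of these data known. The repeats, copies, shared ends, sums by host gene and leave-outs of single genes were added after values were seen. Some items are not reported here.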

Additional observations from a re-analysis of the deposited data

How the results depend on the processing

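No paired analysis was possible because each group has 1 library. Over the boundary rules tried (boundaries of the containing genes only, ends within 3 bases left out, sliding junctions left out), the classes held 333 to 344 intronic, 108 to 109 exon-internal and 220 to 231 mixed junctions. Against the counts of exon-boundary junctions, the intronic shares were 0.727% in the frontal core, 0.773% in the occipital core, 0.767% in penumbra and 0.840% in sham. Without the largest Snhg11 junction the exon-internal shares were 0.110%, 0.131%, 0.125% and 0.106% in the same order. The ratio of their sum to sham was then 1.03, 1.24 and 1.17 for the frontal core, the occipital core and penumbra. Without Snhg14, chosen after seeing the data, the mixed shares were 0.271%, 0.274%, 0.258% and 0.238%. TMM factors moved the log2 ratio of the occipital core to sham by -0.11 and put its exon-internal ratio at 0.959, against 1.04, and its ratio for all 668 junctions at 0.943, against 1.02. Of 54 summed ratios to sham computed under TMM and DESeq2 factors, no other changed side of 1. TMM factors put the ratio for all 668 at 0.922 [0.856–0.993] in the frontal core, against 0.938 [0.871–1.01]. The interval also came to exclude 1 for the intronic ratio of the occipital core and for 2 whole-intron ratios with 1 junction left out, as given with those results; no other interval changed in this way.

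The counts past 2-fold depended on the filter. Members higher and lower were, with no filter, 24 and 45 in the frontal core over sham, 33 and 28 in the occipital core over sham, 35 and 39 in penumbra over sham, 32 and 23 in penumbra over the frontal core, 12 and 39 in penumbra over the occipital core, and 29 and 39 in the frontal core over the occipital core. At 30 counts they were 0 and 1, 0 and 0, 0 and 0, 1 and 0, 0 and 0, and 0 and 2 in that order. At 3-fold they were 0 and 0, 1 and 1, 0 and 3, 0 and 5, 1 and 2, and 2 and 0. The shares of all junctions past the fold rule or called under these other settings are not given here. Whether the members stand out from all junctions in these counts was therefore not tested. At 30 counts Fisher's exact test called 1 member lower in the frontal core over sham, the Nrg1 junction chr8:32501281-32508736; under the other settings it called none. Of the intronic members with 10 counts or more, 5 started at a 5′ splice site. With a median of 3 counts in each member, only 54 could be tested, and single-member differences were mostly not detectable at this depth.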
